A study of Mus musculus with 19 samples.

Results

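The genes described here were 9 genes of the oligodendrocyte lineage, chosen by name: Olig1, Olig2, Sox10, Nkx2-2, Pdgfra, Cspg4, Gpr17, Lpar1 and Mbp. All 9 were among the 26621 genes of the raw count table, and all 9 were among the 13105 genes that had enough reads to be tested. The libraries came from mouse neural progenitor cells (NPCs) of the cerebral cortex at embryonic day 17.5, grown on Matrigel in medium with bFGF and EGF at 20 ng/mL each. The cells were wild type (WT, 6 RNA-seq libraries) or conditional knockouts of Mettl8 (cKO, 6 libraries), a gene for an RNA methyltransferase that makes 3-methylcytidine. Library names placed WT replicates 1 to 3 and cKO replicates 1 and 2 in library set 1, and WT replicates 4 to 6 and cKO replicates 3 to 6 in library set 2. What a set stands for, the Cre line behind the knockout, and whether replicates came from separate cultures or animals could not be read from the labels. A p-value below therefore refers to the spread between these libraries, and part of that spread may be technical.

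Oligodendrocytes are the myelin-forming cells of the central nervous system, and late embryonic cortical progenitors can give rise to them. Olig1, Olig2, Sox10 and Nkx2-2 encode transcription factors of the lineage. Pdgfra encodes the receptor through which platelet-derived growth factor keeps precursor cells dividing, and Cspg4 encodes the NG2 proteoglycan on their surface. As precursors commit to differentiation they lose Pdgfra and Cspg4, pass through a stage marked by the receptor gene Gpr17, and then express myelin genes such as Mbp, which encodes myelin basic protein. Lpar1 encodes a receptor for lysophosphatidic acid found on differentiating oligodendrocytes.

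The sequence before start sites of some of these genes is given first, because the factor genes among the 9 act on regulatory sequence. RefSeq windows of 250 bases before a gene start (build GRCm38.p6) were matched for 5 of the 9 genes, namely Olig2, Nkx2-2, Pdgfra, Cspg4 and, with 3 start sites, Lpar1. Each window was searched on both strands for 4 spellings of the core bound by SOX factors such as Sox10. The first was ACAAAG, the second of the spellings was ACAATG, the third was written as TCAAAG, and the last one searched was TCAATG. The windows were also searched for a pair of E-boxes, the class of site bound by factors of the Olig family, with CAGCTG as the first and with the spelling CATATG as the second. The windows of Olig2 and Cspg4 are printed whole as examples, and no link between their letters and the levels of the genes was tested. Capitals mark SOX core matches, read 5′ to 3′ on the gene's strand.
Olig2, chr16:91225300-91225549, plus strand: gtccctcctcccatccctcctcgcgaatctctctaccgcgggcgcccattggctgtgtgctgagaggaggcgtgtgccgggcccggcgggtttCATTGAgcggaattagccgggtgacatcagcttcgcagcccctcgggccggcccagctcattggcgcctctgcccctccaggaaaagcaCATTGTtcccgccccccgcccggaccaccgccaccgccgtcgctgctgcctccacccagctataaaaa
Cspg4, chr9:56864854-56865103, plus strand: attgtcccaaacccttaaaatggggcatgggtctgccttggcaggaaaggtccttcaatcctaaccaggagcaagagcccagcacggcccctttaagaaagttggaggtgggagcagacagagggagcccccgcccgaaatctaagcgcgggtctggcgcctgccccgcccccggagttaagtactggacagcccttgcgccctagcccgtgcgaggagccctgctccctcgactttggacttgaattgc
The Olig2 window held 2 SOX core matches, and the windows of Cspg4, Nkx2-2 and Pdgfra held 0. Those of Nkx2-2 and Pdgfra, like those of Lpar1, lie inside the span of the gene, before a start site that is not its outermost. The matches before the Lpar1 start sites are shown with their flanks.
Lpar1, chr4:58553304-58553333, minus strand: caccacccgccgCTTTGTagccgtgcgcgt
Lpar1, chr4:58499539-58499568, minus strand: attcatctggtaACAAAGgccattttctag
Lpar1, chr4:58499434-58499463, minus strand: gaagaaagcactCATTGTcgctcctgctgg
At least 1 SOX core match was found in 39.4% of all 32851 windows of this length, so a match is common. The E-box CAGCTG was found in 13% of all windows and CATATG in 3.46%, and neither was found in the windows of these 5 genes. No file used here measures factor binding, and a match is a description of the letters only.

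The 12 libraries held between 11830839 and 18863781 counted reads, with cKO replicate 4 the lowest. Levels are given as CPM, a gene's share of the counts of its library, with totals scaled by TMM and the share multiplied by the same constant in every library, and they are compared for 1 gene across libraries, never between genes, since gene lengths were not used. The first principal component of log2 CPM, 48.5% of the variance, separated the library sets. Mettl8 counts lay between 35.9 and 58.6 CPM in WT and between 59.3 and 80.9 CPM in cKO, so every library labelled cKO was above every WT library. Counts over the whole gene do not check the knockout, since reads of the deleted stretch cannot be set apart in them. Among marker genes, precursor and early committed genes were detected, whereas Mag, Mog, Mobp and Opalin, genes of mature myelin, averaged at most 0.487 CPM and were not tested, and Klk6 had no read. In such bulk libraries fewer cells of a type and less RNA per cell cannot be told apart.

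The clearest difference in the 9 genes was between the library sets and not between genotypes. In set 2, Gpr17, Mbp, Pdgfra, Cspg4 and Olig1 were lower and Nkx2-2 was higher than in set 1 (edgeR quasi-likelihood test with genotype in the model, Benjamini-Hochberg adjusted p under 0.05). Olig2, Sox10 and Lpar1 did not pass the test. The sets differed widely: 43.8% of the 13105 genes passed, 22.2% lower and 21.5% higher in set 2. The 6 of 9 genes called are to be read against that share. The median log2 fold change of the 9 genes was -0.40, against 0.0012 over all genes tested.

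Of the transcription factors, Olig1 stood at 169, 136 and 163 CPM in WT and 150 and 136 CPM in cKO of set 1. In set 2 it stood at 115, 102 and 105 CPM in WT and 135, 123, 121 and 103 CPM in cKO. Every set 2 library lay below every set 1 library, with cKO replicate 3 just under the lowest of set 1. The fitted log2 fold change was -0.40 (SE 0.0801, adjusted p = 0.000431). Olig2, the neighbouring family member, ranged from 65.9 to 95.2 CPM (median 80.6) in set 1 and from 67.0 to 89.9 CPM (median 83.0) in set 2. Its sets overlapped almost entirely, and the log2 fold change was -0.020 with a 95% interval from -0.22 to 0.18. Sox10, which drives myelin genes, ranged from 4.58 to 8.64 CPM in set 1 and from 4.89 to 9.55 CPM in set 2 (log2 fold change 0.27, interval -0.12 to 0.65). Its counts were low, 59 to 166 reads a library. Nkx2-2, a homeodomain factor of the lineage, lay at 5.08, 3.25 and 5.93 CPM in WT and 7.52 and 5.31 CPM in cKO of set 1. In set 2 it lay at 6.86, 7.17 and 7.80 CPM in WT and 8.14, 5.97, 8.46 and 8.14 CPM in cKO. The sets overlapped through cKO replicate 1, which lay above 3 of the 7 libraries of set 2. The log2 fold change was 0.45 (SE 0.17, adjusted p = 0.039). This call was lost in 9 of 12 fits that left out 1 library, with adjusted p up to 0.107 without WT replicate 2, and it held only without cKO replicate 1, cKO replicate 4 or WT replicate 3. Nkx2-2 overlaps the antisense transcript Nkx2-2os and 6430503K07Rik, whose reads cannot be told apart from its own without strand.

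Of the precursor receptor and proteoglycan, Pdgfra was measured at 267, 324 and 257 CPM in WT and 270 and 321 CPM in cKO of set 1. In set 2 it was measured at 165, 241 and 252 CPM in WT and 203, 129, 191 and 249 CPM in cKO. Again no set 2 library reached the lowest of set 1, although WT replicate 6 came within a few CPM of it. The log2 fold change was -0.48 (SE 0.127, adjusted p = 0.0046). Cspg4 lay between 24.4 and 38.1 CPM in set 1 and between 17.0 and 32.7 CPM in set 2. Its sets overlapped through cKO replicate 3, the highest of set 2, and the log2 fold change was -0.48 (SE 0.127, adjusted p = 0.00494).

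The genes of later stages differed most. Gpr17, the receptor of committed precursors, stood at 43.0, 56.2 and 75.7 CPM in WT and 63.8 and 59.3 CPM in cKO of set 1. In set 2 it stood at 10.5, 28.2 and 23.8 CPM in WT and 9.25, 6.39, 11.2 and 27.1 CPM in cKO. All 7 libraries of set 2 lay below all 5 of set 1. Gpr17 was 3.50-fold lower in set 2 (log2 fold change -1.81, SE 0.267, adjusted p = 2.13e-05). The gene overlaps Lims2 on chromosome 18, which was also lower in set 2 (log2 fold change -1.56, adjusted p = 1.01e-05), and reads from the overlap cannot be assigned without strand. Mbp was at 37.2, 64.2 and 59.7 CPM in WT and 40.5 and 67.4 CPM in cKO of set 1. In set 2 it was at 8.04, 28.5 and 32.6 CPM in WT and 5.98, 3.23, 6.69 and 19.8 CPM in cKO. The sets did not overlap here either, and the lowest library of all, cKO replicate 4, was 20.8-fold under the highest, cKO replicate 2. Mbp was 3.58-fold lower in set 2 (log2 fold change -1.84, SE 0.35, adjusted p = 0.000284). The Mbp locus also gives rise to golli transcripts, which gene-level counts do not separate. Lpar1 showed no such shift: it lay between 2.53 and 6.39 CPM in set 1 and between 2.16 and 8.40 CPM in set 2 (log2 fold change -0.12, 95% interval -0.59 to 0.35). Its counts were low, 26 to 139 reads a library. Non-overlapping sets were thus seen for Olig1, Pdgfra, Gpr17 and Mbp, all lower in set 2. Over all genes tested, 11.9% had non-overlapping sets with set 2 lower and 11.7% with set 2 higher.

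**Figure D1:**
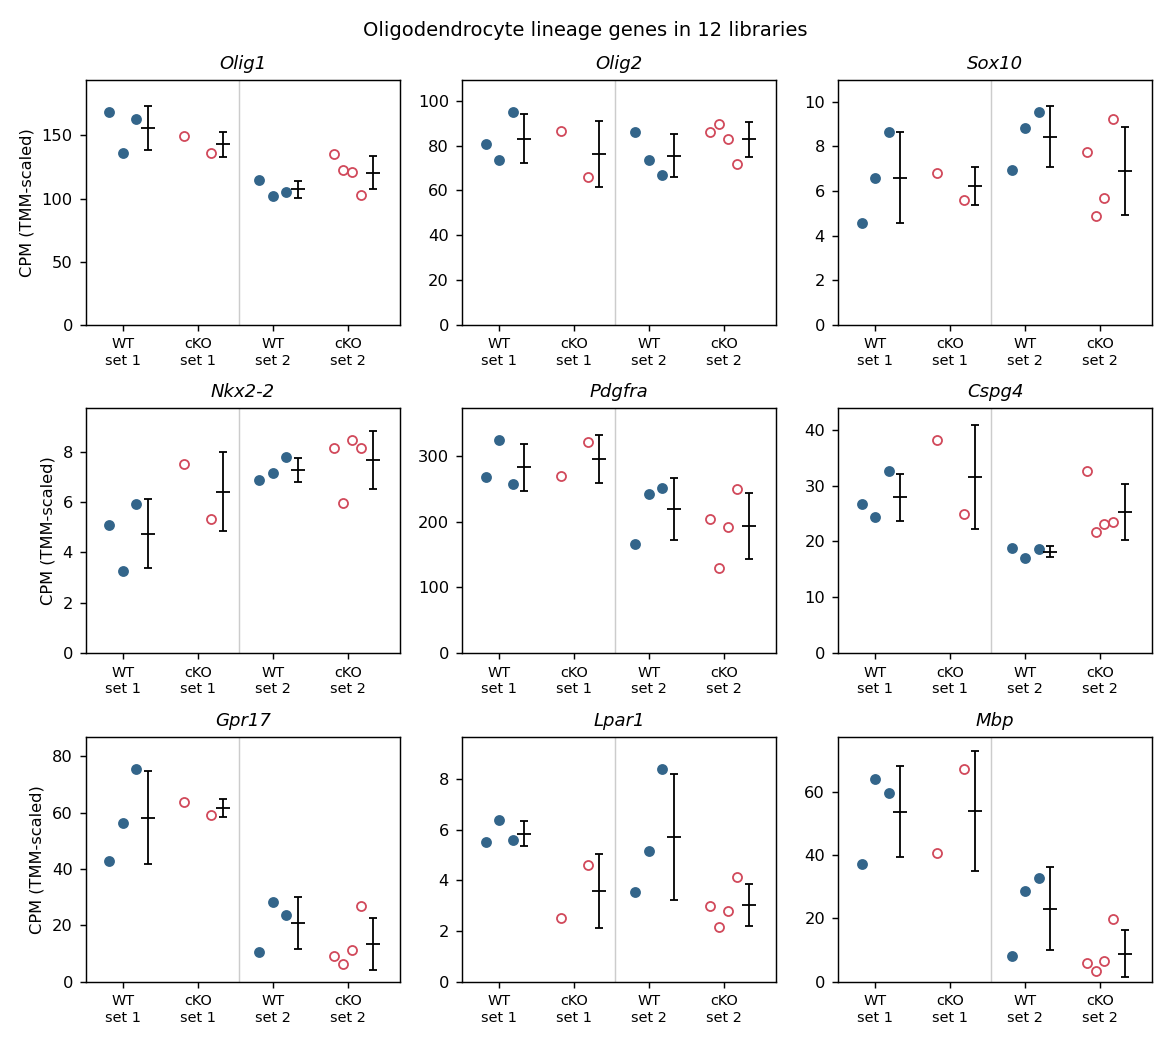
Normalised level (CPM, TMM-scaled library sizes, each axis from 0) of the 9 genes in each library, with WT as filled blue and cKO as open red circles, split by library set; the black bar is the mean and SD of the libraries in a group (3 WT and 2 cKO in set 1, 3 WT and 4 cKO in set 2). Gpr17 and Mbp of set 2 lie below all libraries of set 1, while Olig2 spans the same range in both.

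Fitted within each genotype, the difference between sets kept its direction for the 5 lower genes. Among WT libraries 26.4% of all genes passed, and Olig1 (-0.54), Cspg4 (-0.62) and Gpr17 (-1.48) were lower in set 2, whereas Mbp (-1.21, SE 0.445, adjusted p = 0.0516) and Pdgfra (-0.37, adjusted p = 0.141) missed the threshold. Among cKO libraries 28.7% passed, and Pdgfra (-0.61), Gpr17 (-2.18) and Mbp (-2.57) were lower, whereas Olig1 (-0.25, adjusted p = 0.0986) and Cspg4 (-0.32, adjusted p = 0.199) missed the threshold. Nkx2-2 missed it in both genotypes (0.62, adjusted p = 0.0579 in WT; 0.26, adjusted p = 0.47 in cKO). Whether these sizes differ between the genotypes is the interaction given below, which no gene passed.

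Between genotypes none of the 9 genes passed the test, and neither did any other gene (0% of 13105; edgeR). Before adjustment 805 genes (6.14%) had a p under 0.05, 430 of them lower in cKO (3.28%) and 375 higher (2.86%), and 2 of the 9 genes were among them. DESeq2 and limma-voom called 2 and 1 genes on the same table, none of the 9. Of the 9 genes 5 had a log2 fold change below 0, against 50.4% of all genes, and their median was -0.080, against -0.000996 over all genes.

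Lpar1 had the lowest unadjusted p of the 9 genes. It lay at 5.52, 6.39, 5.60, 3.53, 5.15 and 8.40 CPM in WT replicates 1 to 6 and at 2.53, 4.60, 2.99, 2.16, 2.78 and 4.13 CPM in cKO replicates 1 to 6. The groups overlapped through WT replicate 4, which was under cKO replicates 2 and 6. The log2 fold change was -0.83 (SE 0.224, edgeR adjusted p = 0.803). Cspg4 was the other gene with an unadjusted p under 0.05, in the opposite direction. WT libraries ranged from 17.0 to 32.6 CPM (median 21.6) and cKO libraries from 21.7 to 38.1 CPM (median 24.2), with wide overlap. Its log2 fold change was 0.35 (SE 0.126, edgeR adjusted p = 0.803). Groups overlapped for all 9 genes. Among all genes tested, 0.13% had genotype groups that did not overlap.

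Mbp ranged from 8.04 to 64.2 CPM (median 34.9) in WT and from 3.23 to 67.4 CPM (median 13.2) in cKO. Both groups spanned both sets, and the log2 fold change of -0.72 had a 95% interval from -1.46 to 0.016 (edgeR adjusted p = 0.806). With all 20312 genes that had a read, edgeR called 65 genes, among them Mbp (-0.73, SE 0.103) and Lpar1 (-0.83, adjusted p = 0.0148). In the filtered fit the SE of Mbp was 0.353. That of Lpar1 was 0.224 with the filter and 0.199 without it. The fold changes of both hardly moved, so the 2 calls came with smaller SEs and are not taken as a genotype result. For Gpr17 the value was -0.30 (95% interval -0.86 to 0.26) and for Sox10 -0.21 (-0.59 to 0.17). Olig1 (0.046, interval -0.12 to 0.21) and Olig2 (0.027, -0.17 to 0.22) had the narrowest intervals of the 9 genes. Cspg4 (interval 0.086 to 0.61) and Pdgfra (-0.080, -0.34 to 0.18) came next, with intervals of nearly equal width. Nkx2-2 was at 0.22 (-0.12 to 0.57).

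**Figure D2:**
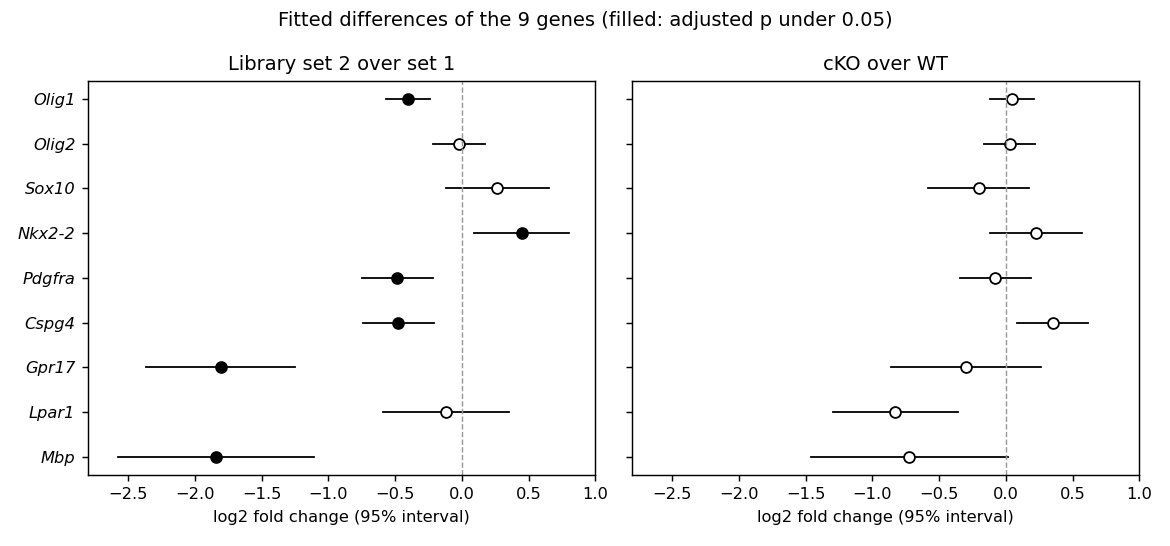
Fitted log2 fold change (dot) with its 95% interval (line) for each of the 9 genes, library set 2 over set 1 on the left and cKO over WT on the right; filled dots have an adjusted p under 0.05. Gpr17 and Mbp lie at -1.81 and -1.84 between sets, and no gene is filled on the genotype side.

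Within single sets the genotypes were also compared. In set 1 no gene of the table passed, and of the 9 genes only Lpar1 had groups that did not overlap (3 WT against 2 cKO libraries; 16.2% of all genes had such groups), with a log2 fold change of -0.72 (SE 0.361, edgeR adjusted p = 1.00). Mbp was level in set 1, with a mean of 53.7 ± 14.5 CPM in WT (SD, n = 3) against 53.9 ± 19.0 CPM for cKO (SD, n = 2). In set 2 edgeR called 2 genes (0.0153%), none of the 9, and 8.1% had an unadjusted p under 0.05. There Mbp averaged 23.1 ± 13.2 CPM in WT (SD, n = 3) against 8.92 ± 7.38 CPM for cKO (SD, n = 4). The fitted log2 fold change was -1.35 (SE 0.444, edgeR adjusted p = 0.571). The groups overlapped, since cKO replicate 6 at 19.8 CPM lay above WT replicate 4 at 8.04 CPM. Mbp, Lpar1 (-0.91) and Cspg4 (0.47) were the 3 of the 9 genes with an unadjusted p under 0.05 in set 2, all with an edgeR adjusted p of 0.571. For Cspg4 the 3 WT libraries, at 18.8, 17.0 and 18.7 CPM, lay below all 4 cKO libraries, at 32.7, 21.7, 23.0 and 23.5 CPM. Non-overlapping groups in set 2 were found for 7.85% of all genes. Among the 9 genes the difference between the sets in the genotype effect was largest in size for Mbp (-1.36, SE 0.654, edgeR adjusted p = 1.00). Over fits without 1 library this value lay between -2.11, without cKO replicate 6 (adjusted p = 0.787), and -0.95, without cKO replicate 2. That of Gpr17 (-0.70) lay between -1.29, also without cKO replicate 6 (adjusted p = 0.86), and -0.41, without WT replicate 5. No gene of the table passed that interaction test, and 464 (3.54%) had an unadjusted p under 0.05, none of the 9 among them. The genotype effects were thus not shown to differ between sets.

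Single libraries carried much of the spread. The SD of log2 CPM within set 2 was 1.25 for Mbp and 0.85 for Gpr17, higher than for 99.7% and 97.7% of all genes tested. In set 1 the same SDs were 0.40 and 0.30. Olig1 and Olig2 had SDs of 0.15 and 0.16 in set 2, under the median of all genes, 0.20. In set 2 cKO replicate 4 was the lowest library for 6 of the 9 genes and WT replicate 6 the highest for 4. Over all genes tested, cKO replicate 4 was the lowest of its set for 21.0% and WT replicate 6 the highest for 17.6%. Relative to the mean of its set, cKO replicate 4 averaged -0.54 over the 9 genes on the log2 scale, whereas WT replicate 6 averaged 0.40, WT replicate 5 0.29 and cKO replicate 6 0.27. cKO replicate 4 had the lowest depth, 11830839 counts, and the part of depth in its values was not tested. Without cKO replicate 4 and WT replicate 5, left out together after the values had been seen, the same 6 genes were called between sets (Mbp -1.84, Gpr17 -1.86). The genotype values then were -0.41 (SE 0.33) for Mbp and -0.79 (SE 0.244) for Lpar1.

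The library names also carry a running number within each set, and the order of the values by that number was noticed after they had been seen. In set 2, numbers 1 to 4 belonged to cKO replicates 3, 4 and 5 and WT replicate 4, and numbers 5 to 7 to WT replicate 5, cKO replicate 6 and WT replicate 6. In that order Mbp read 5.98, 3.23, 6.69, 8.04, 28.5, 19.8 and 32.6 CPM, and Gpr17 read 9.25, 6.39, 11.2, 10.5, 28.2, 27.1 and 23.8 CPM. The last 3 libraries read higher than the first 4 for both genes. This split was chosen after the values were seen, and the share of all genes that it separates was not computed. Olig2 ran the other way over the same libraries, at 86.3, 89.9, 83.0, 86.1, 73.6, 72.0 and 67.0 CPM. In set 1 the order was WT replicate 1, cKO replicates 1 and 2, WT replicates 2 and 3, with Mbp at 37.2, 40.5, 67.4, 64.2 and 59.7 CPM. With the number as a further linear term within each set, the genotype value of Mbp was -0.10 (SE 0.219). That of Lpar1 was -0.54 (SE 0.228) and that of Gpr17 0.15 (SE 0.176). In set 2 the cKO libraries had numbers 1, 2, 3 and 6 and the WT libraries 4, 5 and 7. Number and genotype were thus partly confounded, and their parts in these values cannot be told apart. None of the 9 genes was called by genotype in that fit, and all 6 set calls remained. What the number stands for could not be read from the labels.

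**Figure D3:**
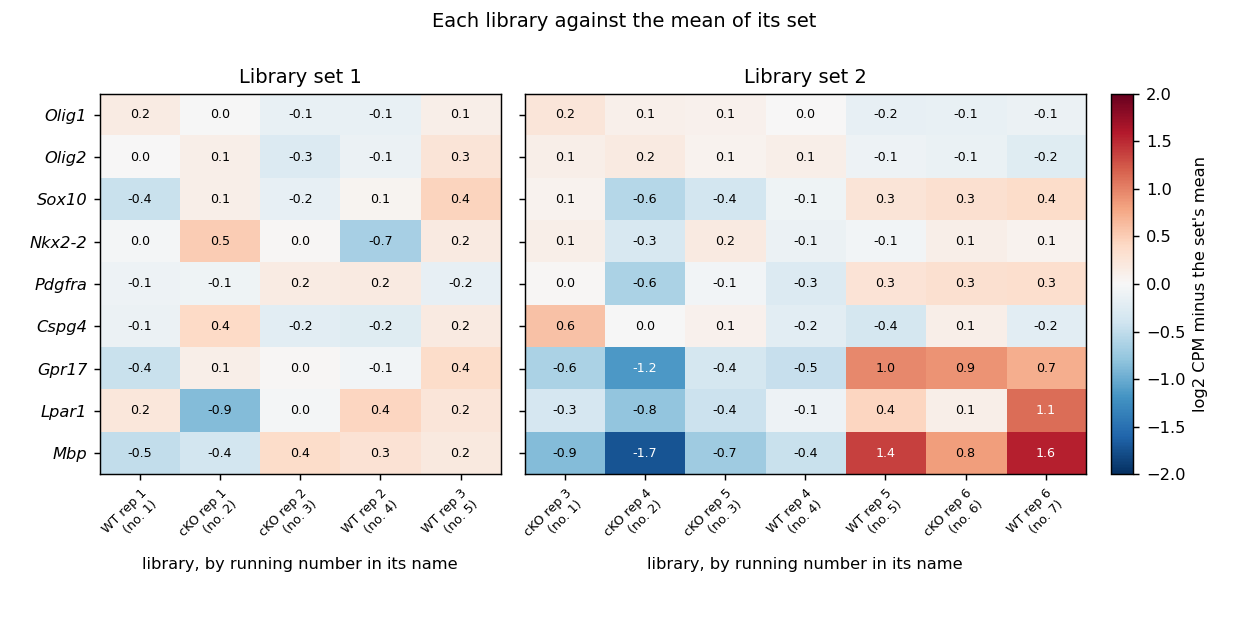
Level of each of the 9 genes in each library as log2 CPM minus the mean of its library set (colour and printed value), with libraries ordered by the running number in their names. In set 2 Mbp runs from -1.7 in cKO replicate 4 to 1.6 in WT replicate 6, while Olig1 and Olig2 vary little.

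The 9 genes did not vary as 1 group. Over the 12 libraries, centred within sets, Sox10, Pdgfra, Gpr17, Lpar1 and Mbp had Pearson r between 0.54 and 0.94 for all 10 pairs. These 5 genes were picked from the same correlations, so the range partly reflects the choice. In set 1 they did not all run together. There WT replicate 3 was the lowest library for Pdgfra and the highest for Sox10 and Gpr17. The highest was for Gpr17 and Mbp (r 0.94, Spearman rho 0.90), followed by Pdgfra and Mbp (r 0.87, rho 0.78). Without cKO replicate 4 and WT replicate 5 the range of the 10 pairs was 0.36 to 0.88, and within the 7 libraries of set 2 it was 0.79 to 0.97. Olig1 and Olig2 tracked each other (r 0.78, rho 0.71) and ran against Mbp (r -0.76 and -0.72). Cspg4 went with Olig1 (r 0.63) and with Nkx2-2 (r 0.59), and against Lpar1 (r -0.58). Of the 36 pairs, 14 had r above 0.5 and 8 had r below -0.5. All points come from the same libraries and share their depth and scaling, so these values are a description; the 5 libraries of set 1 were too few for values of their own.

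**Figure D4:**
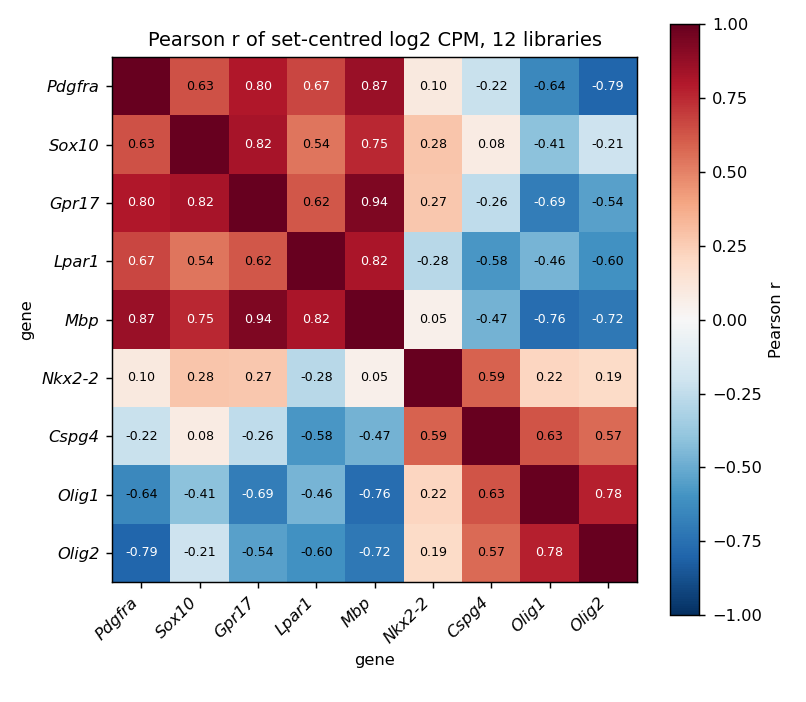
Pearson r of log2 CPM, centred within each library set, for each pair of the 9 genes over 12 libraries (colour and printed value). Pdgfra, Sox10, Gpr17, Lpar1 and Mbp, picked from these values, form a block between 0.54 and 0.94. Olig1 and Olig2 have negative values with that block.

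Among 9625 genes with a mean of at least 5 CPM, the 10 whose centred levels were most like the mean of the 9 genes included Bcas1 (r 0.98), Dcaf11, Myl9, 3110035E14Rik, Ttyh1, Enpp6, S100a1, Kcnj10 and Epb4.1l2 (r 0.94), over 12 libraries. That mean was not scaled by gene, so Mbp and Gpr17, with set 2 SDs of 1.25 and 0.85, weigh most in it. It does not stand for Olig1 and Olig2, which ran against Mbp. By Spearman's rho 5 of these 10 were again among the first 10, and 53 genes in all had r above 0.9. Bcas1 spanned 14.1 CPM in cKO replicate 4 to 72.7 CPM, and Enpp6 1.66 CPM in the same library to 98.3 CPM. The 5 least alike were Blm (r -0.95), E2f7, Srgap2, Aurka and Rttn (r -0.92). E2f7 was highest in cKO replicate 4, at 22.9 CPM, and lowest at 9.56 CPM. Blm and Aurka, which encode a DNA helicase and a mitotic kinase, were likewise at their highest there, at 44.0 and 313 CPM.

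Most genes of wider precursor and committed lists were lower in set 2 as well. Of 19 tested genes of oligodendrocyte precursors other than the 9, 14 were lower and 1 higher in set 2 (median log2 fold change -0.44). Sox8, a relative of Sox10, went from a mean of 47.8 CPM in set 1 to 20.0 CPM in set 2 (log2 fold change -1.29). Of 15 other genes of committed precursors, 9 were lower and 2 higher (median -0.63), including Enpp6, from 75.0 to 12.7 CPM (-2.60). Of 17 other genes of myelin and mature oligodendrocytes, 8 were lower and 2 higher (median -0.56). These counts stand beside 22.2% lower and 21.5% higher over all genes.

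None of these lists held a gene called by genotype. The unadjusted p was under 0.05 for 1 lower gene, C1ql1 (-0.898), and 1 higher gene, Sulf2 (0.15), among the 19 precursor genes, whose median was 0.06. The next smallest p in that list belonged to Sox8 (0.17, edgeR adjusted p = 0.806). Among the 15 committed genes it was under 0.05 for Enpp6 (-0.92) and Bcas1 (-0.53), both lower with an edgeR adjusted p of 0.806, and 12 of 15 had values below 0 (median -0.08). Nfasc (-0.29) and Zfp536 (0.64) followed. Among the 17 myelin genes 12 were below 0 (median -0.09). Trf, the transferrin gene, was at -0.13 in that list (edgeR adjusted p = 0.857).

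Genes that act with the 9 were also counted. Of 3 tested PDGF genes only Pdgfra was called between sets. Pdgfa, the ligand of the receptor, was at -0.33 (edgeR adjusted p = 0.883) by genotype. Of 7 other tested genes of lysophosphatidic acid receptors and metabolism, 3 were lower and 2 higher in set 2, and none had a genotype p under 0.05. Ppap2b, the table's name for Plpp3, whose product degrades lysophosphatidic acid, was at -0.16 (edgeR adjusted p = 0.816) by genotype and at -0.97 between sets. Lpar2, another receptor of the family, was at -0.41 (edgeR adjusted p = 0.857) by genotype. Of 9 Hedgehog genes 2 were lower and 2 higher between sets, Hhip, at 0.36, had an unadjusted genotype p under 0.05 (edgeR adjusted p = 0.803), and Shh had no read. Among the relatives of the factor genes Sox8 and Sox9 were both lower in set 2. Nkx2-9 and Nkx6-1 had no read. Of 14 tested genes in a list on inhibitors of oligodendrocyte differentiation, 8 were lower and 1, Hes1, higher in set 2. The list was not limited to genes that act as inhibitors themselves, and Axin2 and Tcf4 were in it. By genotype Id4 (-0.65) and Hes1 (-0.28) had an unadjusted p under 0.05 (edgeR adjusted p = 0.804 and 0.806). Of 6 genes of the thyroid hormone axis 1 was lower and 3 higher in set 2. By genotype Dio2 (-0.53), Thrb (0.30) and Klf9 (-0.16) had a p under 0.05 there, none of them called.

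Markers of other cell types moved with the sets as well. Of 13 astrocyte genes 11 were lower and 0 higher in set 2 (median -0.72). Their summed level lay between 10645 and 12967 CPM in set 1 and between 5333 and 8702 CPM in set 2, where cKO replicate 4 was again the lowest and WT replicate 5 reached 8290 CPM. Slc1a3, Aldoc and Sparcl1 were at -0.49, -0.63 and -0.72 between sets. By genotype all 13 were below 0 (median -0.14), with 2 at an unadjusted p under 0.05. Of 11 neuronal genes 9 were higher and 1, Mtap2 (the table's name for Map2), lower in set 2 (median 0.95). Gap43 and Dcx were at 1.16 and 0.20. The summed level of the list, to which Mtap2 gave 1867 CPM on average, lay between 2169 and 2712 CPM in set 1 and between 1989 and 2269 CPM in set 2. Of 13 genes of stem cells and radial glia 7 were higher and 5 lower, among them Fabp7 (0.53) and Ptprz1 (-0.35). The part of these cell types in the values of the 9 genes was not tested.

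Fewer genes were tested in the remaining lists: 5 of intermediate progenitors (2 lower, 1 higher in set 2), 5 of the ventral lineage (0 and 3), 6 of Schwann cells and neural crest (2 and 3), 4 of ependyma (1 and 1) and 5 of endothelium and mural cells (0 and 1). Of 12 microglial genes 2 were tested, and Tmem119, C1qa, C1qc and Trem2 had no read. Of 12 meningeal fibroblast genes 3 were tested, Pdgfra among them, and Col1a1, Col1a2, Dcn and Lum averaged at most 0.427 CPM.

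**Figure D5:**
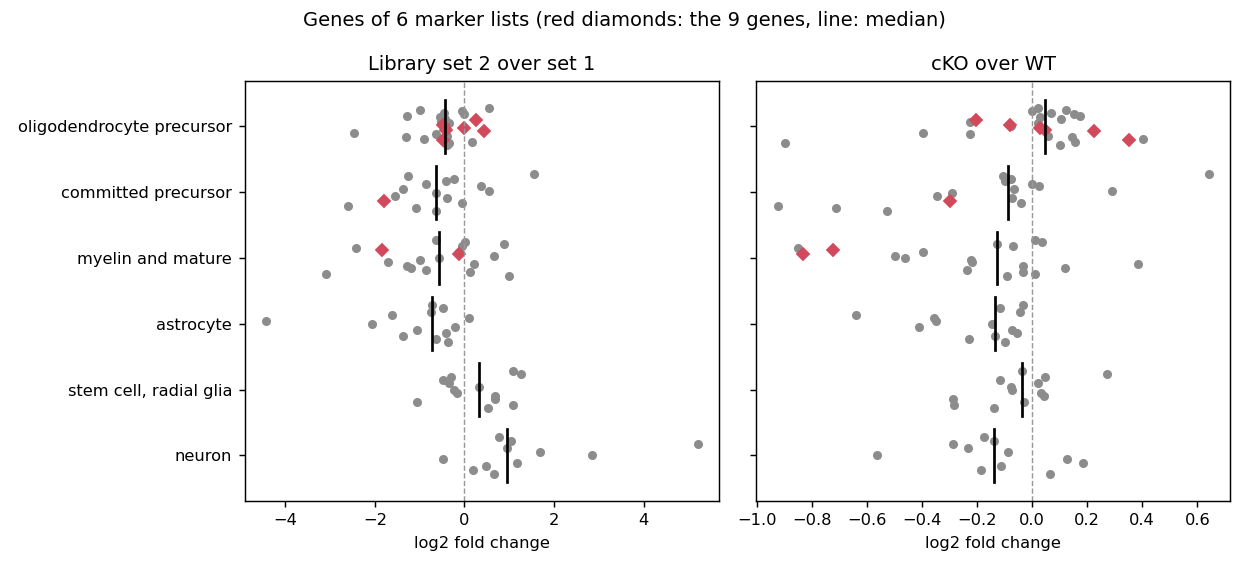
Fitted log2 fold change of each tested gene in 6 marker lists, library set 2 over set 1 on the left and cKO over WT on the right, on different scales; red diamonds are the 9 genes, grey dots the other genes, and the black line is the list's median. Between sets the medians of the 3 oligodendrocyte lists and the astrocyte list lie between -0.72 and -0.44, and that of the neuronal list at 0.95.

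A second assay covered some of these genes. Hydrazine-aniline cleavage sequencing (HAC-seq), in which the RNA chain is cut at 3-methylcytidine, gave a cleavage ratio per cytidine, the share of reads that start just downstream, in 4 WT and 3 cKO libraries. Of the cytidines listed, 354 lay in the 9 genes: 230 in Olig1, 100 in Olig2, 18 in Pdgfra, 4 in Cspg4 and 1 each in Sox10 and Nkx2-2. None lay in Gpr17, Lpar1 or Mbp on their own strand, and a site entered the table only through reads in the WT libraries. With a coverage of at least 50 reads in every library and a mean ratio of at least 5%, 28 sites of Olig1 and 19 of Olig2 could be tested. None was called (quasi-binomial test; 0.00755% of 13240 sites tested, 1 site, were called). Of the 47 sites 27 were higher in cKO, against 61.4% of all sites tested. A single Olig1 site had an unadjusted p under 0.05, against 8.64% of all sites.

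That site, a cytidine at chr16:91269966 (build GRCm38.p6, plus strand) inside the Olig1 gene at chr16:91269769-91271939, had ratios of 10.6%, 10.1%, 7.83% and 9.40% in the WT libraries. In the cKO libraries it had 4.51%, 6.09% and 5.70%. It is shown because it was the only 1 of the 47 sites with an unadjusted p under 0.05. The mean was 9.48% ± 1.20 for WT (SD, n = 4) and 5.43% ± 0.821 for cKO (SD, n = 3). The difference had an adjusted p = 0.575 in the quasi-binomial test with its spread fitted across all sites by limma. Coverage there was 115 to 226 reads. The only Sox10 site, at chr15:79155573, had 48.4% ± 6.44 in WT (SD, n = 4) against 50.7% ± 23.2 for cKO (SD, n = 3). Only 8 to 27 reads covered it, too few for the test.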

How the data were processed

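Total RNA of WT and cKO NPCs, 300 ng a library, was made into SMART-seq2 libraries, per the labels' protocols. Per the submitters' processing notes, bcl2fastq 2.17.1.14, Trimmomatic 0.32 and STAR 2.5.2a were used, and the builds named are GRCm38 (RNA-seq) and GRCm38.p6 (HAC-seq). Which program counted the reads, with what annotation and whether by strand, is not stated by any label or header. For RNA-seq the authors deposited unnormalised read counts per gene. Among counts from 1 to 10 only 17.4% were odd, so an alternative divided all counts by 2. The deposited HAC-seq table gives, per cytidine and library, the signal of read starts, the count of reads covering the site, and their quotient as a fraction; the authors' p-value per site was not used. Of its 135582 entries 16692 repeated a site and were dropped. All sample columns were used (0 left out).

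The tests on counts ran in edgeR 4.0.16 under R 4.3.3. Of all genes 13105 passed filterByExpr (groups: genotypes), TMM scaled the libraries, and the two-sided quasi-likelihood test with library set and genotype in the model used Benjamini-Hochberg adjustment over all genes and a threshold of 0.05. Within-set and interaction values came from a fit with 4 cells of genotype and set. Log2 CPM used a prior count of 2. HAC-seq sites were tested with a two-sided quasi-binomial test (limma 3.58.1 for the dispersion). Both tests were checked on simulated data. The check of the site test used higher ratios and larger changes than those of the Olig1 site shown. It also had the numbers of WT and cKO libraries exchanged, so it does not cover such sites. In the test on counts, with 98 of 12938 genes changed 2-fold (1 on the log2 scale) between genotypes, 85.7% were recovered. That share is over the 98 genes changed 2-fold. Another 97 genes were changed by 2 on the log2 scale, and 100% of them were recovered. There were 11 false calls. Calls of strongly changed genes ease the adjusted threshold for the others, and the simulated counts held no difference between library sets. In the data 0 genes were called by genotype and the sets differed widely, so the share may be too high for them. The share also does not give the chance of a call for a single gene with a wide spread. The genotype SE was 0.353 for Mbp, 0.269 for Gpr17 and 0.224 for Lpar1. Lpar1, at -0.83, was not called (edgeR adjusted p = 0.803). DESeq2 1.42.0 was an alternative. No libraries were duplicates: replicate pairs differed with a chi-square per degree of freedom of at least 8.42.

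The 9 genes and all lists were chosen with earlier results of these data known. The lists cover oligodendrocyte precursors, committed precursors, myelin, PDGF, lysophosphatidic acid, Hedgehog, relatives of the factor genes, inhibitors of differentiation, the thyroid hormone axis and 10 other cell types or stages. Named are the 9 genes, in each lineage or pathway list at most the 4 genes of smallest genotype p, in other cell type lists those of highest mean CPM, the 10 most and 5 least alike genes, Mettl8, and, chosen after their values were seen, defining markers at or near 0, genes with large set differences and genes overlapping a locus. Some genes that this rule names are not reported here.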

Additional observations from a re-analysis of the deposited data

Results flagged for a closer look

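Within groups of 4 or 6 libraries (WT, cKO and cKO of set 2), the gap of the highest or lowest library to its neighbour was compared with the whole range by Dixon's criterion, for the 9 genes, 27 gene and group pairs in all. Chance alone marks about 1 in 20 such groups, and 2 were marked here. Nkx2-2 in cKO replicate 4, at 5.97 CPM, was far under the other 3 cKO libraries of set 2, which lay between 8.14 and 8.46 CPM. Cspg4 in cKO replicate 3, at 32.7 CPM, was far above the other 3, between 21.7 and 23.5 CPM. Without that library the genotype value of Cspg4 was 0.26 on the log2 scale, against 0.35 with it.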

How the results depend on the processing

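The set calls of Gpr17, Mbp, Pdgfra, Cspg4 and Olig1 held in every alternative run, namely DESeq2 size factors, DESeq2, limma-voom, counts divided by 2, no filter on low counts, the running number and each left-out library. That of Nkx2-2 was lost without 1 library in 9 of 12 fits, so that the number of the 9 genes called higher ranged from 0 to 1. By genotype the genes called went from 0 to 20 higher and 45 lower without a filter (2 of the 9 lower, Mbp and Lpar1), to 1 higher and 1 lower with DESeq2, to 1 higher with limma-voom, to 2 higher in set 2 alone and to 2 higher with the running number, and ranged from 0 to 1 higher over fits without 1 library. The interaction ranged from 0 to 1 higher over the same fits, with 1 without cKO replicate 3. Without a filter the calls of Mbp and Lpar1 came with the smaller SEs given above. The causes were not tested. Genotype signs turned for 6 of the 9 genes in at least 1 alternative, Mbp, Gpr17 and Sox10 among them. In set 1 alone Olig1 was at -0.13, Olig2 at -0.12, Pdgfra at 0.065, Gpr17 at 0.081 and Mbp at 0.0046. With the running number, added after the data were seen, Olig1 was at -0.070, Olig2 at -0.072, Sox10 at 0.033, Pdgfra at 0.088 and Gpr17 at 0.15. In set 2 that number was partly confounded with genotype. Without cKO replicate 4 and WT replicate 5, also added later, Olig1 was at -0.0018, Olig2 at -0.025 and Pdgfra at 0.053. Without a set term Olig1 was at -0.040. Over fits without 1 library, Olig2 ranged from -0.031 to 0.11 and Pdgfra from -0.15 to 0.010 by genotype. Over the same fits Olig2 ranged from -0.11 to 0.047 and Lpar1 from -0.32 to 0.052 between sets, and Lpar1 ranged from -0.56 to 0.30 in the interaction. Sites in Olig1 and Olig2 tested at a coverage of 20 gave 0 calls, as at 50. Of the 10 most alike genes, 5 were kept by Spearman's rho.

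The replicate numbers were not shown to pair the samples. Replicate 3, which lies in different sets in the 2 genotypes, had an r of deviations of -0.36. The other 5 numbers, each within 1 set, had r between 0.37 and 0.62, and 2 of 6 cKO libraries correlated best with their own number. A shared set and a pairing cannot be told apart in these r values, so they do not decide on pairing within a set. With the number as a replicate block in place of the set, 0 genes were called, 857 had an unadjusted p under 0.05, and Olig1 was at -0.021. Counts of 26 to 166 reads a library limit Lpar1, Sox10 and Nkx2-2.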
